A study of Schizosaccharomyces pombe with 12 samples.

Results

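Splicing removes introns from pre-mRNA, and fission yeast has many intron-containing genes. The set described here holds the genes of this machinery that carry the names prp, cwf, smd, lsm or sap followed by a number in the annotation of the probe sets, which are groups of probes on the array that read 1 gene. The naming rule found 57 of the 2896 Schizosaccharomyces pombe genes that a probe set named, and the brightest probe set stood for a gene where it had several. All genes means these 2896 named genes below, where the reference gene list holds 5124 protein-coding genes. By textbook role, 9 members belong to the U2 small nuclear ribonucleoprotein (snRNP) or its recruitment and 7 to the U4/U6.U5 tri-snRNP or its entry. Another 25 belong to the Prp19 complex and its companions, 4 are late helicases or factors of the later catalytic step, 3 encode Sm proteins and 8 encode Lsm proteins. The remaining member, sap1, matched by name only: it encodes a DNA-binding protein of replication fork barriers. It is kept apart from the role classes, but counts over the 57 members include it.

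The spliceosome is built anew on each intron. The U1 snRNP and U2AF mark the ends of the intron, the U2 snRNP binds the branch point through its SF3a and SF3b subcomplexes, and the tri-snRNP then enters. The Prp19 complex stabilises the rearranged RNA core, and DEAH-box helicases drive the steps that lead to exon ligation and release. Sm proteins form a ring on the U1, U2, U4 and U5 RNAs. Lsm proteins form a nuclear ring that contains Lsm8 and binds U6 RNA, and a cytoplasmic ring that contains Lsm1 in place of Lsm8 and takes part in the decay of mRNA.

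Total RNA of 4 groups of 3 biological replicates each was measured on 12 arrays. The groups were mis4-367 and mis4+ cells after 2 h at 37 °C, and mis4-367 and mis4+ cells at 25 °C without the shift. No group is labelled as held at 25 °C for the same 2 h, so temperature and time cannot be told apart. Mis4 is the fission yeast factor that loads cohesin onto chromosomes, and mis4-367 is a temperature-sensitive allele of it. All groups shared the h- mating type and the plasmid ura4+-pREP2-res1, from which a C-terminal fragment of the transcription factor Res1 was expressed in EMM2 medium once thiamine was withdrawn. This overexpression arrests the cells in G1, so every value below describes arrested cells that carry the plasmid, and none describes cycling cells. The series is about genes whose expression depends on cohesin, here in cells held before S phase.

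The deposited values are intensities on a linear scale, and array medians over the S. pombe genes were 394 to 433. All 57 members lay above the background level of 10.7, with prp18 the dimmest. All arrays are from arrested cultures, so the arrest itself could not be checked against cycling cells. Of 13 genes normally expressed outside G1, none was higher and 5 were lower in mis4-367 than in mis4+ at 37 °C, against 5.46% of all genes lower, with a median log2 difference of -0.20. Without mis4+ replicate 3 at 37 °C, an array that stood apart, 2 were lower, against 2.52% of all genes, and the median was -0.13. At 25 °C none passed, against 0.622% of all genes lower, and the median was -0.12. Omitting that array gave 4 lower at 25 °C, against 3.35% of all genes, with the same median. The mean log2 level of these 13 genes was 8.09 to 8.21 on the mis4-367 arrays and 8.28 to 8.46 on the mis4+ arrays at 37 °C. At 25 °C it was 8.23 to 8.24 on the mis4-367 arrays and 8.35 to 8.40 on the mis4+ arrays. Of 10 heat shock genes, 6 rose and 1 fell with the shift in each strain, against 33.4% of all genes higher in each strain and 23% lower in mis4-367 and 21.9% lower in mis4+. The largest rise was that of hsp16, a small heat shock protein gene, at 1.1 in mis4-367 and 0.83 in mis4+ on the log2 scale. The gene that fell was ssa1, at -0.77 in mis4-367 and -0.37 in mis4+, and ssa2, sks2 and mcp60 passed in neither strain. In bulk RNA, a change in the number of cells of 1 state and a change in RNA per cell cannot be told apart.

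Replicate 3 of mis4+ at 37 °C stood apart from its group. Over all genes, the SD of its difference from the mean of the other replicates of its group was 0.202 on the log2 scale. For the other arrays this SD was 0.065 to 0.134. It was the array farthest from its group's median for 35 of the 57 members, against 62.8% of all genes. For prp22, a helicase that releases spliced mRNA, it read 289 where the other mis4+ arrays at 37 °C read 412 and 395. For prp4, a kinase that acts on the tri-snRNP, it read 294 where the others read 211 and 214. Counts over the members are therefore given with and without it, and so are members whose mis4+ shift call changed without it or whose called mis4+ shift moved by over 1.5 times. Without it, mis4+ shift calls were gained by cwf2 (-0.18), cwf22 (-0.26), cwf29 (0.19) and prp18 (0.29) and lost by cwf16 (-0.11, limma adjusted p = 0.0514) and lsm8 (0.22, limma adjusted p = 0.0694). The mis4-367 shift values do not use it, but with the smaller spread left in the fit 7 more members passed there (prp12, sap145, prp19, cwf21, prp22, prp43 and smd3) and none was lost.

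Changes in the members were small in every comparison, and most calls came with the shift. A gene is said to have risen or fallen where its adjusted p was under 0.05 in limma, with Benjamini-Hochberg adjustment over the 2896 genes. After the shift to 37 °C, 15 members rose and 16 fell in mis4-367 (54.4% of the 57), against 56.4% of all genes. In mis4+, 15 rose and 11 fell (45.6%), against 55.3% of all genes. Both shares were close to or below those of all genes. Without sap1, 14 of 56 members rose and 11 fell in mis4+ (44.6%), and 15 rose and 16 fell in mis4-367. By direction, 26.3% of members rose and 28.1% fell in mis4-367, where 33.4% of all genes rose and 23% fell. In mis4+, 26.3% of members rose and 19.3% fell, where 33.4% of all genes rose and 21.9% fell. Quantile normalization over the S. pombe genes turned the split to 12 higher and 20 lower in mis4-367 and to 13 higher and 17 lower in mis4+. All genes turned with it, to 828 higher and 837 lower in mis4-367 and 847 higher and 834 lower in mis4+. Without the outlying array, 20 members rose and 18 fell in mis4-367 (38.1% and 28.1% of all genes), and 16 rose and 12 fell in mis4+ (32.8% and 27.1% of all genes).

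The median size of these responses was below that of all genes measured. No member reached a change of 1.5-fold in either strain, against 11.3% of all genes in mis4-367 and 10.2% in mis4+. The median absolute log2 change was 0.16 for the members and 0.20 for all genes in mis4-367, and 0.15 for the members and 0.19 for all genes in mis4+. Member changes ran between -0.46 and 0.51 in mis4-367 and between -0.40 and 0.58 in mis4+, and those of all genes between -2.80 and 3.76 in mis4-367 and between -2.81 and 3.40 in mis4+. The 37 °C and 25 °C arrays did not overlap for 37 members in mis4-367, against 70.8% of all genes, and for 28 members in mis4+, against 60.4% of all genes. Without the outlying array the mis4+ values were 39 members and 75.9% of all genes.

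**Figure D1:**
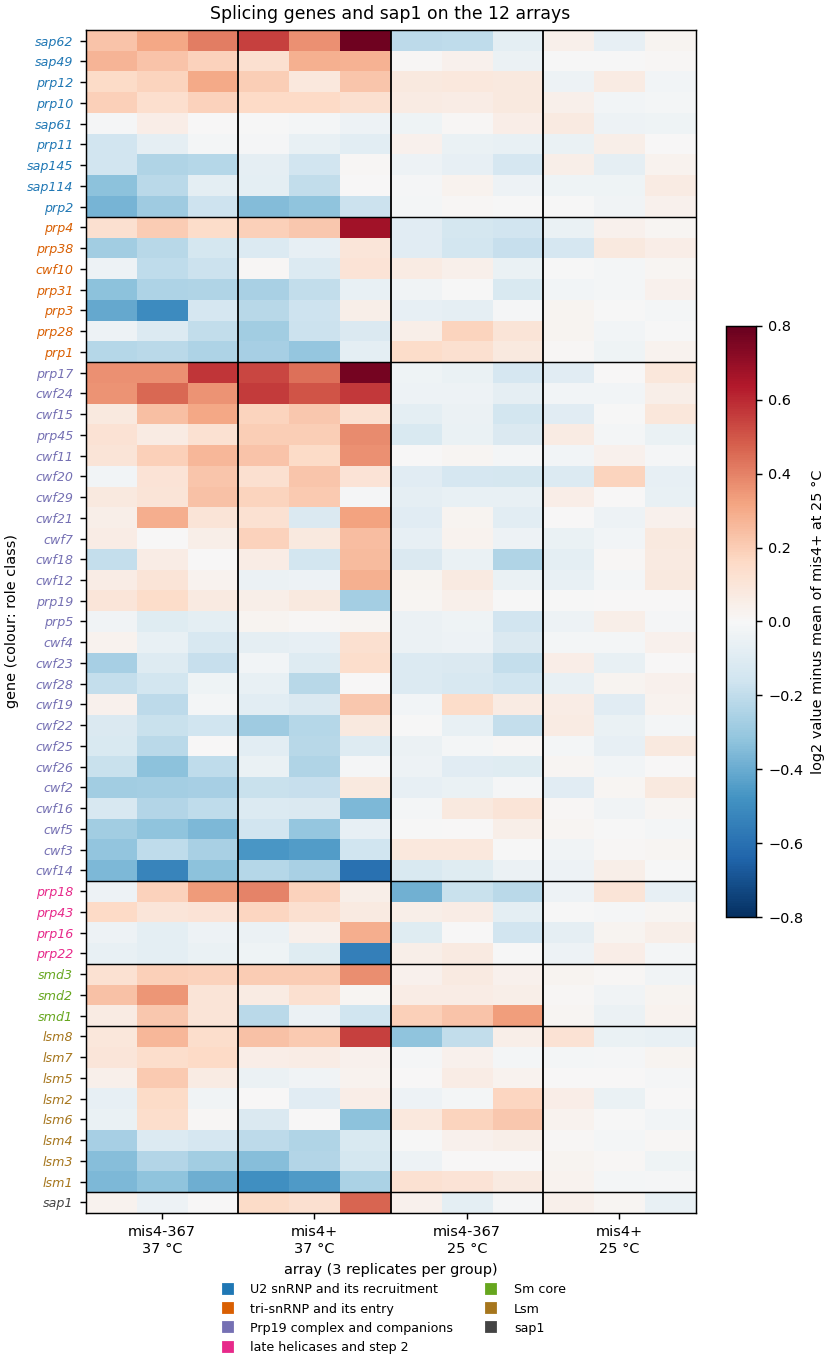
Log2 value of each member on each of the 12 arrays, as a difference from the mean of mis4+ at 25 °C; rows are genes grouped by role, columns are arrays grouped by strain and temperature, red is higher and blue lower. Most colour separates 37 °C from 25 °C, and the third mis4+ column at 37 °C differs from its neighbours in many rows.

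The largest rises common to both strains were those of 3 members that act at different stages. prp17 (SPBC6B1.10, chromosome II) encodes a WD repeat protein needed for the later catalytic step. It read 342, 342 and 394 in mis4-367 at 37 °C, against 260.0, 256 and 242 at 25 °C. In mis4+ it read 385, 361 and 452 at 37 °C, against 249.7, 266 and 282 at 25 °C. The temperatures did not overlap in either strain, while the strains overlapped at each temperature. The rise was 0.51 ± 0.08 (SE) on the log2 scale in mis4-367 and 0.58 ± 0.08 in mis4+, or 1.42-fold and 1.495-fold, with limma adjusted p = 0.000265 in mis4-367 and 0.000103 in mis4+.

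sap62 (SPBC21C3.05, chromosome II) encodes an SF3a subunit of the U2 snRNP. It read 156, 165 and 177 in mis4-367 at 37 °C, against 115, 116 and 126 at 25 °C. In mis4+ it read 195, 172 and 228 at 37 °C, against 137, 128 and 136 at 25 °C. Every array at 37 °C was above every array at 25 °C of the same strain. The rise was 0.48 ± 0.09 in mis4-367 and 0.56 ± 0.09 in mis4+ on the log2 scale (limma adjusted p = 0.000524 in mis4-367 and 0.000181 in mis4+).

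cwf24 (SPBC13E7.02, chromosome II) encodes a zinc finger protein of the activated spliceosome, and its replicates were the tightest of these genes. It read 225, 240.3 and 225 in mis4-367 at 37 °C, against 170.1, 169.9 and 166 at 25 °C. In mis4+ it read 257, 248 and 259 at 37 °C, against 172, 172 and 181 at 25 °C. The mis4-367 arrays lay below the mis4+ arrays at each temperature, and the 37 °C arrays above the 25 °C arrays in each strain. The rise was 0.45 ± 0.04 in mis4-367 and 0.54 ± 0.04 in mis4+, with the smallest adjusted p of any member (limma adjusted p = 3.88e-06 in mis4-367 and 8.47e-07 in mis4+). The calls of prp17, sap62 and cwf24 held in both strains under all 12 omissions of 1 array and all 7 other settings tried.

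Other rises were smaller or less firm. prp4, the tri-snRNP kinase gene (SPCC777.14), read 201, 212 and 204 in mis4-367 at 37 °C, against 173, 167 and 166 at 25 °C. In mis4+ it read 211, 214 and 294 at 37 °C, against 178, 189 and 187 at 25 °C, so the highest value came from the outlying array. The rise was 0.29 ± 0.10 in mis4-367 and 0.36 ± 0.10 in mis4+ (limma adjusted p = 0.0253 in mis4-367 and 0.00847 in mis4+), and in mis4-367 its call was lost without replicate 2 or 3 at either temperature of that strain, or with quantile normalization. Its mis4+ rise was 0.20 without the outlying array (limma adjusted p = 0.0013). prp18, a factor of the later catalytic step (SPCC126.14), read 38.9, 45.5 and 50.6 in mis4-367 at 37 °C, against 30.6, 35.3 and 34.5 at 25 °C. In mis4+ it read 52.8, 45.4 and 41.3 at 37 °C, against 39.0, 42.9 and 38.3 at 25 °C. It rose in mis4-367 by 0.42 ± 0.10 (limma adjusted p = 0.00454), and its difference in mis4+ was 0.21 ± 0.10 (limma adjusted p = 0.11). As the dimmest member it was also sensitive to scaling: with quantile normalization over the S. pombe genes its change in mis4-367 was -0.09.

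In the U2 class as a whole, 3 of 9 genes rose and 2 fell in mis4-367, and 4 rose and 1 fell in mis4+. Over all genes 33.4% rose in each strain, and 23% fell in mis4-367 and 21.9% in mis4+. Without the outlying array, 4 of the class rose and 3 fell in mis4-367, where 38.1% of all genes rose and 28.1% fell. The mis4+ counts stayed at 4 and 1, where 32.8% of all genes rose and 27.1% fell. sap49, an SF3b subunit gene, rose by 0.23 in each strain. prp10, which encodes the large SF3b subunit, rose by 0.10 in mis4-367 and 0.15 in mis4+. The mis4-367 call was lost without any 1 of 8 arrays, after re-centring, with quantile normalization and with replicate number as a block. prp12, another SF3b gene, rose by 0.17 in mis4+ and had a change of 0.13 in mis4-367 (limma adjusted p = 0.0536). The mis4+ call of prp12 was lost without replicate 1 or 3 at 25 °C, without replicate 1 at 37 °C or with only the groups compared. prp2 (SPBC146.07), which encodes the large subunit of U2AF, fell: it read 669.6, 710.0 and 771 in mis4-367 at 37 °C, against 855, 873 and 863 at 25 °C. In mis4+ it read 682, 693 and 769 at 37 °C, against 865, 848 and 885 at 25 °C. Its change was -0.27 ± 0.06 in mis4-367 and -0.28 ± 0.06 in mis4+ (limma adjusted p = 0.00185 in mis4-367 and 0.00167 in mis4+). The SF3a gene sap114 fell in mis4-367 by 0.20, a call lost without any 1 of 4 arrays, and had a change of -0.09 in mis4+ (limma adjusted p = 0.276). sap61, sap145 and the helicase gene prp11 passed in neither strain, with changes between -0.13 and 0.00. Median changes of the class were 0.00 in mis4-367 and -0.02 in mis4+, against 0.04 for all genes in each strain.

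**Figure D2:**
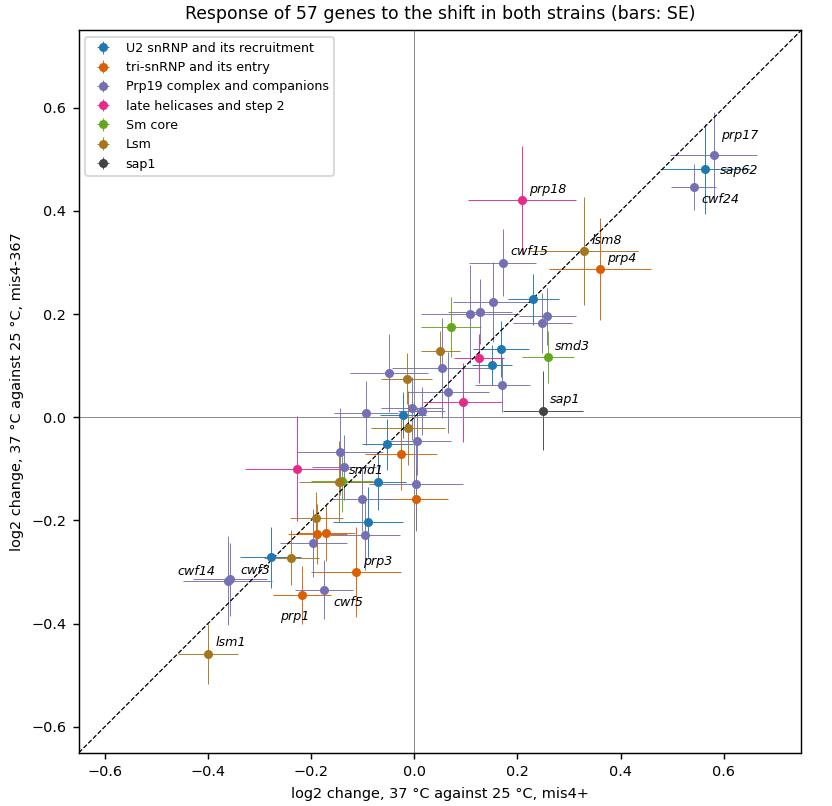
Log2 change at 37 °C against 25 °C of each of the 57 members, in mis4-367 (vertical axis) and in mis4+ (horizontal axis), coloured by role, with bars for the SE and a dashed line of equality. Most points lie along the line, with prp17, sap62 and cwf24 at its upper end and lsm1 at its lower end.

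Members of the tri-snRNP class fell more often than they rose. In mis4-367, 5 of 7 fell and 1, the kinase gene prp4, rose. In mis4+, 3 fell and 1, again prp4, rose. Among all genes the order was the other way, with 33.4% higher and 23% lower in mis4-367 and 33.4% higher and 21.9% lower in mis4+. The class medians were -0.22 in mis4-367 and -0.11 in mis4+, and -0.19 in mis4+ without the outlying array. The class counts were the same without that array, where 38.1% of all genes rose and 28.1% fell in mis4-367. In mis4+ 32.8% of all genes then rose and 27.1% fell. prp1 (SPBC6B1.07), whose product bridges U4/U6 and U5, read 360.1, 364 and 356 in mis4-367 at 37 °C, against 467, 460.1 and 444 at 25 °C. In mis4+ it read 351, 340.3 and 400.2 at 37 °C, against 425, 412 and 430.1 at 25 °C. Neither pair of groups overlapped. Its change was -0.34 ± 0.06 in mis4-367 and -0.22 ± 0.06 in mis4+ (limma adjusted p = 0.000258 in mis4-367 and 0.00617 in mis4+). prp31, a U4/U6 protein gene, changed by -0.22 in mis4-367 and -0.17 in mis4+, and prp28, a helicase gene that acts when U6 replaces U1, by -0.23 and -0.19. In mis4+ the prp31 call was lost without any 1 of 3 arrays or with only the groups compared, and the prp28 call without any 1 of 2 arrays. prp3, another U4/U6 protein gene, fell by 0.30 in mis4-367 and had a change of -0.11 in mis4+ (limma adjusted p = 0.29), or -0.19 without the outlying array (limma adjusted p = 0.0686). Its mis4-367 call was lost without replicate 2 at 37 °C (adjusted p = 0.0557). cwf10, the U5 GTPase gene, fell by 0.16 in mis4-367, a call lost without any 1 of 8 arrays, and its change in mis4+ was 0.00. prp38 passed in neither strain.

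The Prp19 complex and its companions were divided. Of 25 genes, 7 rose and 6 fell in mis4-367, and 6 rose and 4 fell in mis4+, against 33.4% of all genes higher in each strain and 23% and 21.9% lower. The class medians were 0.02 in mis4-367 and 0.01 in mis4+, and -0.05 in mis4+ without the outlying array. Without that array 9 rose and 6 fell in mis4-367, against 38.1% and 28.1% of all genes. In mis4+ 7 rose and 5 fell, against 32.8% and 27.1% of all genes. Beside prp17 and cwf24, prp45 (0.20 and 0.26), cwf11 (0.18 and 0.25) and cwf15 (0.30 and 0.17) rose in both strains, the first value of each pair being that of mis4-367. The cwf15 call in mis4+ (limma adjusted p = 0.0396) was lost without any 1 of 7 arrays, after re-centring, with quantile normalization and with only the groups compared. The cwf11 call in mis4-367 was lost without mis4-367 replicate 3 at either temperature. prp45 is the homologue of SKIP and cwf11 that of the helicase Aquarius. cwf3 (SPBC211.02C), a scaffold gene, read 257, 278 and 268 in mis4-367 at 37 °C, against 338, 339.7 and 319 at 25 °C. In mis4+ it read 232, 235 and 286 at 37 °C, against 314, 322 and 323 at 25 °C. Its change was -0.31 ± 0.07 in mis4-367 and -0.36 ± 0.07 in mis4+ (limma adjusted p = 0.00248 in mis4-367 and 0.00111 in mis4+).

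cwf14 (SPBC24C6.11), the homologue of BUD31, read 309.5, 275 and 316 in mis4-367 at 37 °C, against 365, 371 and 385 at 25 °C. In mis4+ it read 339, 332 and 263 at 37 °C, against 386, 410.4 and 396 at 25 °C. The temperatures did not overlap in either strain, and the change was -0.32 ± 0.09 in mis4-367 and -0.36 ± 0.09 in mis4+ (limma adjusted p = 0.00776 in mis4-367 and 0.00359 in mis4+). cwf5 (SPCC550.02C), an RNA-binding protein gene, read 129, 125 and 123 in mis4-367 at 37 °C, against 157, 157 and 162 at 25 °C. In mis4+ it read 141, 127 and 150.2 at 37 °C, against 159, 156 and 156 at 25 °C. It changed by -0.33 ± 0.06 in mis4-367 and by -0.17 ± 0.06 in mis4+ (limma adjusted p = 0.000326 in mis4-367 and 0.0206 in mis4+). The mis4+ call was lost without replicate 1 at 25 °C, without replicate 2 at 37 °C or with only the groups compared.

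The remaining calls of the class were smaller. cwf16 fell in both strains, by 0.24 in mis4-367 and 0.20 in mis4+, and its mis4+ call was lost without any 1 of 3 arrays or with only the groups compared. cwf20 (0.22), cwf29 (0.20), cwf2 (-0.23) and cwf26 (-0.16) passed in mis4-367, where their mis4+ values were 0.15, 0.13, -0.10 and -0.10. The cwf20 call was lost without any 1 of 4 arrays or with quantile normalization. The cwf26 call was lost without any 1 of 8 arrays and the cwf29 call without mis4-367 replicate 3 at 37 °C. cwf7, a core subunit gene, passed in mis4+ at 0.17, with 0.06 in mis4-367, a call lost without either of 2 arrays or with only the groups compared. The ubiquitin ligase gene prp19, for which the complex is named, passed in neither strain, with 0.09 in mis4-367 and -0.05 in mis4+. On the outlying mis4+ array prp19 read 747, against 933 and 955 on the other arrays of the group. prp5, cwf4, cwf12, cwf18, cwf19, cwf21, cwf22, cwf23, cwf25 and cwf28 also passed in neither strain. cwf22 and cwf24 are neighbouring protein-coding genes on chromosome II in the reference gene list, on the same strand by their locus tags. cwf22 changed by -0.07 in mis4-367 and -0.14 in mis4+ where cwf24 rose. Of the 4 late genes, prp43 rose in mis4+ by 0.13, with 0.11 in mis4-367 (limma adjusted p = 0.0603). The mis4+ call of prp43 was lost without any 1 of 9 arrays, after re-centring or with only the groups compared. The helicase genes prp16 and prp22 passed in neither strain.

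**Figure D3:**
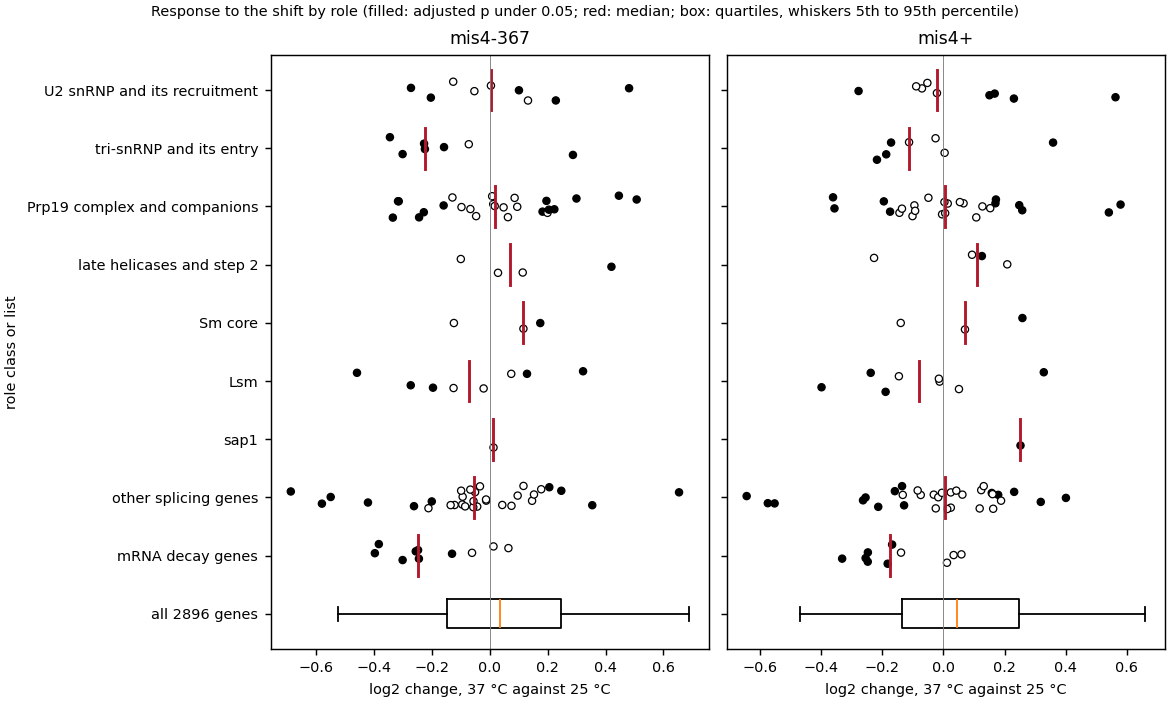
Log2 change at 37 °C against 25 °C by role, in mis4-367 (left) and mis4+ (right); each point is a gene, filled where limma's adjusted p was under 0.05, red lines are medians, and the box shows quartiles of all 2896 genes with whiskers at the 5th and 95th percentiles. The tri-snRNP class, the Lsm class and the mRNA decay genes have medians below 0 in both strains, and every splicing class of more than 1 gene holds changes of both signs.

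Among the ring proteins, the Lsm genes did not move as a block. In mis4-367, 2 of 8 rose and 3 fell, and in mis4+ 1 rose and 3 fell. Over all genes 33.4% were higher in each strain, and 23% were lower in mis4-367 and 21.9% in mis4+. The class medians were -0.07 in mis4-367 and -0.08 in mis4+. Without the outlying array the mis4-367 counts were the same, where 38.1% of all genes rose and 28.1% fell. In mis4+ 0 then rose and 3 fell, with a median of -0.05, where 32.8% of all genes rose and 27.1% fell. lsm1 (SPBC3D6.08C, chromosome II), the subunit particular to the cytoplasmic ring, read 816, 838 and 796 in mis4-367 at 37 °C, against 1137, 1130 and 1098 at 25 °C. In mis4+ it read 744, 763 and 879 at 37 °C, against 1066, 1032 and 1039.9 at 25 °C. All 6 arrays at 37 °C lay below all 6 at 25 °C. Its change was the largest fall of any member, at -0.46 ± 0.06 in mis4-367 and -0.40 ± 0.06 in mis4+ (limma adjusted p = 3.15e-05 in mis4-367 and 0.000107 in mis4+), or 1.37-fold and 1.32-fold lower.

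lsm8 (SPCC1840.10, chromosome III), the subunit particular to the nuclear ring, was dim. It read 48.4, 54.6 and 50 in mis4-367 at 37 °C, against 36.4, 39.6 and 47.0 at 25 °C. In mis4+ it read 53.4, 52.5 and 66.3 at 37 °C, against 49.2, 43.9 and 43.6 at 25 °C. It rose by 0.32 ± 0.10 in mis4-367 and 0.33 ± 0.10 in mis4+ (limma adjusted p = 0.0193 in mis4-367 and 0.0186 in mis4+), but this direction turned with quantile normalization, to -0.15 and -0.13. The calls were also lost without any 1 of 3 arrays in each strain. Of the 6 genes common to both rings, lsm3 and lsm4 fell in both strains. lsm3 (SPBC9B6.05C) read 267, 288 and 278 in mis4-367 at 37 °C, against 329, 338 and 338 at 25 °C, a change of -0.27 ± 0.05 (limma adjusted p = 0.000879). In mis4+ it read 267, 287 and 307 at 37 °C, against 343, 341 and 330.2 at 25 °C, a change of -0.24 ± 0.05 (limma adjusted p = 0.00233). lsm4 changed by -0.20 in mis4-367 and -0.19 in mis4+. lsm7 rose in mis4-367 by 0.13 and had a change of 0.05 in mis4+, and lsm2, lsm5 and lsm6 passed in neither strain.

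The 3 Sm genes measured by the rule also differed. smd2 read 1290, 1403 and 1180 in mis4-367 at 37 °C, against 1142, 1145 and 1135 at 25 °C, and rose by 0.17 ± 0.06 (limma adjusted p = 0.0218), a call lost without any 1 of 4 arrays. In mis4+ it read 1149, 1199 and 1108 at 37 °C, against 1103, 1075 and 1113 at 25 °C, a difference of 0.07. smd3 read 1861, 1856 and 2086 in mis4+ at 37 °C, against 1640.3, 1622 and 1582 at 25 °C, and rose by 0.26 ± 0.05 (limma adjusted p = 0.000911), with 0.12 in mis4-367 (limma adjusted p = 0.0657). smd1 did not pass in either strain, at -0.12 and -0.14.

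**Figure D4:**
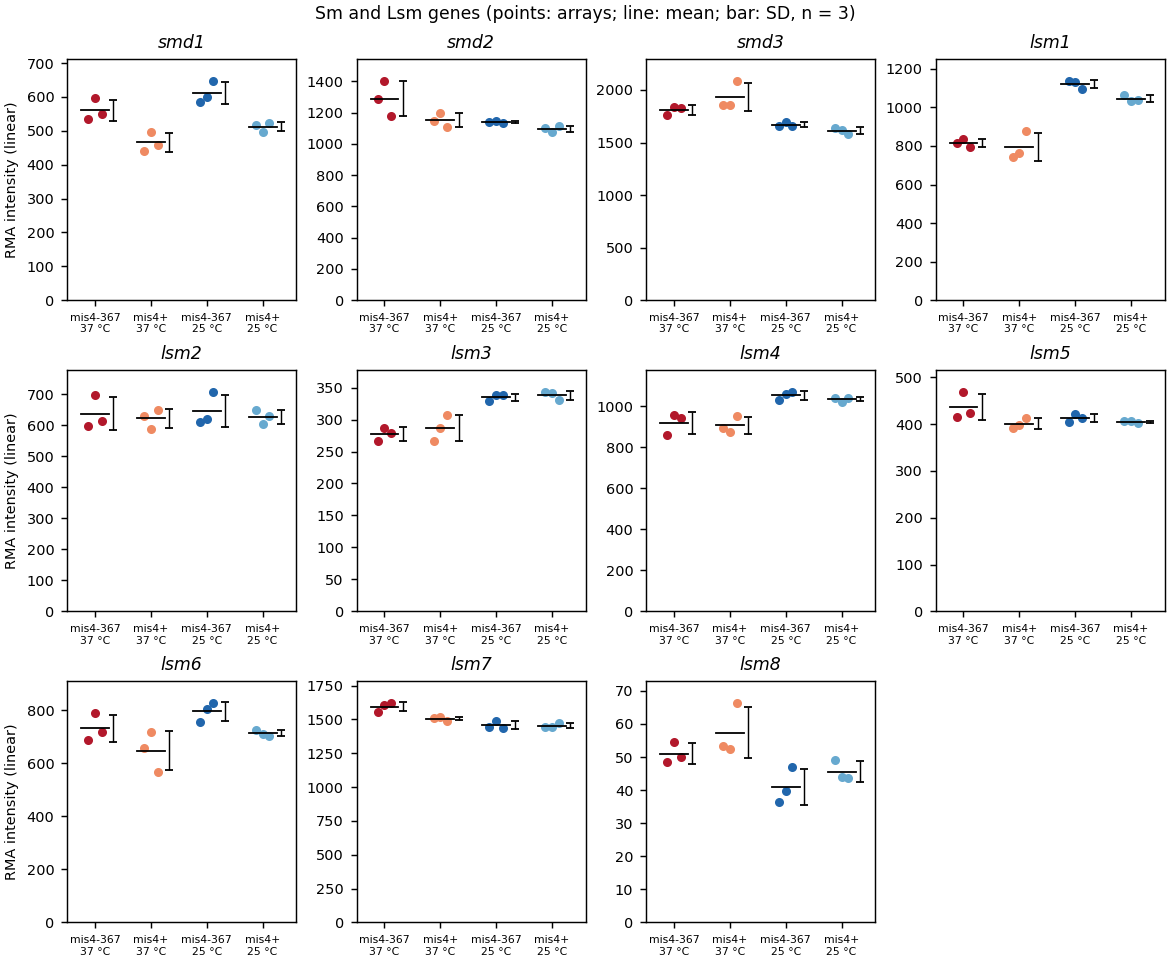
Deposited intensity (linear scale, each axis from 0) of the 3 Sm and 8 Lsm genes on every array; points are arrays, lines are means and bars the SD of 3 replicates, with groups in the order mis4-367 37 °C, mis4+ 37 °C, mis4-367 25 °C and mis4+ 25 °C. lsm1, lsm3 and lsm4 are lower at 37 °C in both strains, and smd1 is higher in mis4-367 at both temperatures.

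Many calls were shared between the strains, where 56.4% of all genes were called in mis4-367 and 55.3% in mis4+. Of the 31 members called in mis4-367 and the 26 called in mis4+, 21 were shared, 10 higher and 11 lower. That is 67.7% of the mis4-367 calls and 80.8% of the mis4+ calls. The shared calls were not counted over all genes, and 1 fit gave the spread for both comparisons. No member was called in opposite directions. The 2 responses, which share no array, had the same sign in 49 of 57 members, against 2546 of all 2896 genes. They correlated at r = 0.919 across members, against r = 0.959 over all 2896 genes. Genes are not independent replicates, and all shared the same array design. The difference between the 2 responses was then tested for each gene. No member passed in limma, with 0 also at an unadjusted p under 0.05, and no gene of the 2896 passed either, where 141 had an unadjusted p under 0.05. The smallest member p adjusted to 0.824, no member's difference reached 1.5-fold (0.173% of all genes), and the farthest 95% interval bound of a member was 1.45-fold. A member called in 1 strain only was therefore not shown to respond differently.

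Comparing the strains at 37 °C, where the allele is restrictive, smd1 alone passed: 1 of 57 members rose and none fell, against 7.18% of all genes called, 1.73% higher and 5.46% lower. At an unadjusted p under 0.05 there were 16 members (28.1%), against 29.4% of all genes. The median log2 difference of the members was -0.04, against -0.05 for all genes, and without the outlying array it was -0.01 for both. No member reached 1.5-fold, against 0.311% of all genes, and the farthest 95% interval bound of any member was 1.35-fold. The arrays of mis4-367 lay entirely above those of mis4+ for 3 members and entirely below for 8, against 24.6% of all genes in either direction. Without the outlying array these counts were 8 and 10, against 34.1% of all genes. At 25 °C no member passed, against 0.622% of all genes, with 2 at an unadjusted p under 0.05 (3.51%), against 11.4% of all genes. There the strains did not overlap for 20 members, against 32.7% of all genes, no member reached 1.5-fold (0.104% of all genes), and the farthest interval bound was 1.40-fold.

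smd1 (SPAC27D7.07C, chromosome I) encodes the Sm protein D1 of the snRNP core ring. It read 535, 596 and 549.9 in mis4-367 at 37 °C, against 442, 497 and 458 in mis4+ at 37 °C. At 25 °C it read 585, 599 and 647 in mis4-367, against 519, 497 and 523 in mis4+. The mis4-367 arrays were above the mis4+ arrays at both temperatures without overlap, and each strain's temperatures overlapped. The difference at 37 °C was 0.27 ± 0.06 on the log2 scale, or 1.20-fold (95% interval 0.14 to 0.40, limma adjusted p = 0.029), and at 25 °C it was 0.25 ± 0.06, or 1.19-fold (limma adjusted p = 0.0884). The 25 °C value was the largest positive strain difference of the 2896 genes at that temperature, while at 37 °C it ranked 46 from the top. The 37 °C call was lost without mis4+ replicate 1 or 3 or mis4-367 replicate 2 or 3 at 37 °C, and without mis4-367 replicate 2 at 25 °C, with adjusted p between 0.0512 and 0.118. With only the 6 arrays of the temperature in the fit it was lost at 37 °C (adjusted p = 0.179) and gained at 25 °C (adjusted p = 0.0305). It was also gained at 25 °C without the outlying array (adjusted p = 0.0454). Of the 13 genes of cells outside G1, 13 had a negative strain difference at 37 °C and 12 at 25 °C. With all arrays, 5 passed at 37 °C and 0 at 25 °C, against 5.46% and 0.622% of all genes lower. Without the outlying array, 2 passed at 37 °C and 4 at 25 °C, against 2.52% and 3.35% of all genes lower. The part of these 13 genes in the smd1 difference was not tested.

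Without the outlying array, the single call at 37 °C was not smd1 (adjusted p = 0.0562) but cwf3, at 0.20 (adjusted p = 0.0423), which is named for this after its value was seen. Below the threshold at 37 °C stood cwf24 at -0.15 (limma adjusted p = 0.0634), sap1 at -0.25 (0.0654), prp45 at -0.16 (0.0872), cwf23 at -0.19 (0.0883), sap62 at -0.25 (0.0943) and smd2 at 0.16 (0.0972). Leaving out mis4+ replicate 2 at 37 °C gave 2 higher and 10 lower members (17.5% lower), where 15.1% of all genes were lower under the same omission, and no other omission gave more than 1 lower member. At 25 °C the smallest p-values after smd1 belonged to prp18 at -0.26 (limma adjusted p = 0.354) and cwf28, a companion of the Prp19 complex, at -0.13 (0.441). cwf28 read 204, 201 and 198 in mis4-367 at 25 °C, against 211, 224 and 226 in mis4+ at 25 °C.

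**Figure D5:**
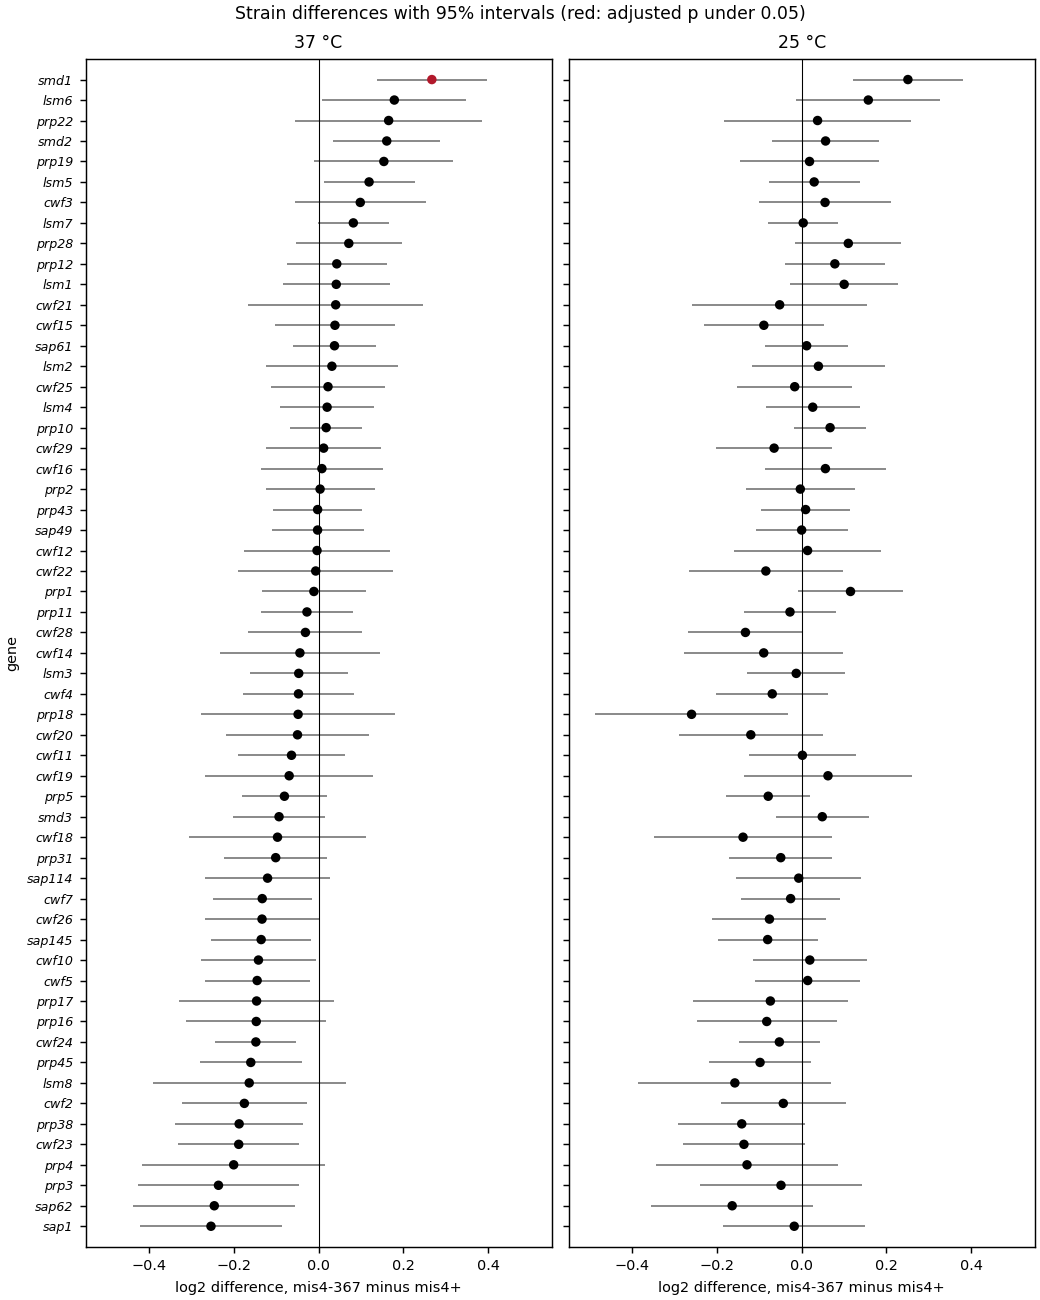
Log2 difference, mis4-367 minus mis4+, of each member at 37 °C (left) and at 25 °C (right), with 95% intervals. smd1, in red at 37 °C, is the 1 member with limma adjusted p under 0.05, and lies at 0.27 and 0.25.

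sap1, the member that is no splicing gene, read 501, 478 and 494 in mis4-367 at 37 °C, against 547, 539 and 681 in mis4+ at 37 °C, so the highest value came from the outlying array. It rose with the shift in mis4+ by 0.25 (limma adjusted p = 0.0156), a call lost without mis4+ replicate 3 at 25 °C or with only the groups compared (adjusted p = 0.0608), and had a change of 0.01 in mis4-367. Without the outlying array the mis4+ rise was 0.14 (limma adjusted p = 0.0182), and the strain difference at 37 °C was -0.15 in place of -0.25. The difference between the 2 responses was -0.24 ± 0.11 (limma adjusted p = 0.824).

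Splicing genes with other names were taken from a list of textbook factors, of which 32 were measured. Among them are prp39 and prp40, U1 snRNP genes that the array lists under older symbols, and sad1 and spp2, whose S. pombe products act at the spindle pole body and in DNA priming. In mis4-367, 4 rose and 6 fell with the shift, and in mis4+ 5 rose and 9 fell, against 33.4% of all genes higher in each strain and 23% and 21.9% lower. With the outlying array left out, 8 rose and 8 fell in mis4-367, against 38.1% and 28.1% of all genes. In mis4+ 3 rose and 10 fell, against 32.8% and 27.1% of all genes. The largest changes were those of srp2, an SR protein gene (-0.69 in mis4-367 and -0.58 in mis4+), lea1, a U2 protein gene (0.65 and 0.40), syf2 of the Prp19 complex (-0.58 and -0.64) and slu7, a factor of the later step (-0.55 in each strain). dsk1, a kinase of SR proteins, fell by 0.42 in mis4-367 and 0.26 in mis4+. Of the listed U5 and tri-snRNP genes outside the naming rule, snu13 fell in both strains (-0.20 and -0.26). brr2 and snu66 fell in mis4+ only (-0.16 and -0.14), with -0.09 and -0.06 in mis4-367. spp42 (-0.08 and -0.03) and aar2 (0.08 and 0.12) passed in neither strain. Between the strains at 37 °C, lea1 was higher in mis4-367 by 0.23 (limma adjusted p = 0.0382), and slu7 and spp2 were lower at -0.22 (0.0442) and -0.20 (0.0428). Without sad1 and spp2, 1 of 30 was higher and 1 lower, against 1.73% of all genes higher and 5.46% lower. Over omissions of 1 array, 0 to 1 genes of the full list were higher and 0 to 8 lower at 37 °C. Of all genes, 0.104% to 4.49% were then higher and 0.656% to 15.1% lower. Without the outlying array 0 genes of the list were higher and 1 lower, against 1.04% and 2.52% of all genes. All 3 calls were lost with quantile normalization or with only the groups compared, and both lower ones after re-centring each array on its median. The Sm genes smb1, sme1, smf1 and smg1 passed in no comparison.

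Beside lsm1, 10 genes of cytoplasmic mRNA decay were followed. With the shift, 7 fell in mis4-367 and 6 in mis4+ and none rose, with medians of -0.25 and -0.18. Of all genes, 33.4% rose in each strain, and 23% fell in mis4-367 and 21.9% in mis4+. Without the outlying array 7 fell and none rose in each strain, where 28.1% of all genes fell in mis4-367 and 27.1% in mis4+. dcp2, the decapping enzyme gene, changed by -0.40 in mis4-367 and -0.33 in mis4+, and edc3, an enhancer of decapping, by -0.38 and -0.25. The deadenylase genes ccr4 (-0.30 and -0.26) and caf1 (-0.26 and -0.18), the exonuclease gene exo2 (-0.25 in each strain) and the scaffold gene not1 (-0.13 and -0.17) also fell in both strains. not3 fell in mis4-367 only (-0.24 and -0.14). dcp1 (0.06 and 0.01), ste13 (-0.06 and 0.03) and not2 (0.01 and 0.06) passed in neither strain. At 37 °C caf1 was lower in mis4-367 than in mis4+, at -0.18 (limma adjusted p = 0.0392), a call lost under those settings, after re-centring and without any 1 of 8 arrays.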

How the data were processed

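Total RNA was hybridised to 12 GeneChip arrays, labelled as 3 biological replicates of each of 4 groups. The authors deposited 1 intensity per probe set and array; they were made with RMA, per the submitters' processing notes (background correction, quantile normalization over all arrays, probe summary), version not given in the sources used here. Because the deposited intensities are linear while RMA gives log2 values, a step back to the linear scale, not stated in the sources used here, lies between. RMA assumes that most signals do not change and understates folds of dim probe sets. Log2 was taken without a pseudocount.

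Among 10928 probe sets, 2914 named 1 S. pombe gene, leaving 2896 genes (brightest probe set where several); 20 named several genes and 5390 had no name and were not used. The background level was the 95th percentile of 2601 probe sets named for another species. One limma fit (limma 3.58.1, R 4.3.3) of the 4 group means over all 12 arrays gave each comparison, with Benjamini-Hochberg adjustment over 2896 genes. Precision is set by how few arrays there are: the median 95% half-width of a member was 0.135 on the log2 scale. Scripts were tested on simulated data, and figures drawn with matplotlib 3.10.9. Members, lists and tests were chosen with earlier results of these data known. Full values are given for members called between strains, for the 5 largest rises and falls with the shift in each strain, and for the 3 smallest p-values where no member was called; all others are accounted for by role. Alternatives were re-centring, quantile normalization, an offset of 16, a background filter, the mean of probe sets, only the groups compared, a replicate block and omission of each array.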

Additional observations from a re-analysis of the deposited data

Results flagged for a closer look

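smd3, a gene of the Sm core ring, had strain differences of opposite sign at the 2 temperatures with no overlap at either. At 37 °C it read 1759, 1841 and 1832 in mis4-367, all below 1861, 1856 and 2086 in mis4+, a log2 difference of -0.09 (limma adjusted p = 0.238). At 25 °C it read 1653, 1700.2 and 1657 in mis4-367, all above 1640.3, 1622 and 1582 in mis4+, a log2 difference of 0.05 (limma adjusted p = 0.77). The difference between them was tested and did not pass, at -0.14 ± 0.07 (limma adjusted p = 0.824). Its highest value came from mis4+ replicate 3 at 37 °C, the array that stood apart, and without that array the 37 °C difference was -0.04.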

How the results depend on the processing

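Replicates gave the widest range. Over omissions of 1 array, the members higher in mis4-367 at 37 °C numbered 0 to 2 and the members lower 0 to 10; 10 came without mis4+ replicate 2 at 37 °C, where 15.1% of all genes were lower, and 1 without mis4-367 replicate 3 at 37 °C. At 25 °C 0 to 1 were higher and 0 lower. The 1 came without mis4+ replicate 3 at 37 °C, where 0.173% of all genes were higher. With the shift, 10 to 20 members rose and 13 to 18 fell in mis4-367. Over the same omissions 29.1% to 38.1% of all genes rose there and 20.3% to 28.1% fell. In mis4+ 11 to 16 members rose and 8 to 12 fell, against 28.8% to 34.7% and 18% to 27.1% of all genes. With only the groups compared in the fit, the count higher in mis4-367 was 0 at 37 °C and 1 at 25 °C. Of all genes, 0.0345% and 0.483% were then higher. Quantile normalization gave 17 members lower with the shift in mis4+, against 11 with the deposited scaling, where all genes lower went from 21.9% to 28.8%. It also reversed prp18 in mis4-367 (-0.0882, adjusted p = 0.46) and lsm8 in mis4-367 (-0.1485, 0.19) and mis4+ (-0.1282, 0.256). These genes are dim, and the cause was not tested. Of the calls with the shift, 19 of 31 in mis4-367 and 16 of 26 in mis4+ held under every setting, and 0 of 1 between strains. The count for the difference of responses was 0 throughout.

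Between strains at 37 °C, all genes split into 50 higher and 158 lower, 80 and 108 after re-centring and 88 and 88 after quantile normalization. With the replicate block, 1 member was higher at 37 °C and 0 at 25 °C, against 1.66% and 0% of all genes. With the shift 14 members rose and 16 fell in mis4-367, against 33.4% and 22.9% of all genes. In mis4+ 15 members rose and 12 fell, against 33.4% and 21.4% of all genes. Same-numbered arrays did not deviate together in a consistent way. Their r ran from -0.0878 to 0.09 within strains and from -0.383 to 0.183 between strains at the same temperature. Across strain and temperature it reached 0.2302, for replicate 3 of mis4-367 at 37 °C and of mis4+ at 25 °C. Differently numbered arrays reached 0.402, for mis4-367 replicate 3 and mis4+ replicate 1 at 25 °C. The numbers were therefore not taken as pairs.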
